A study of Mus musculus with 8 samples.

Results

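Broad H3K9ac domains at gene ends numbered 355 in the cerebellar peak lists of this series, where all 8 lists together merged to 19505 regions. The domains were found in a separate merge of 4 of these lists. H3K9ac, acetylation of histone H3 at lysine 9, was mapped by ChIP-seq, which sequences the DNA recovered with an antibody to the mark, in cerebellum of C57BL/6 mice aged 9 weeks. The 4 knock-in libraries came from mice, described as symptomatic, that were heterozygous for an SCA7 knock-in allele labelled 266Q, which encodes ataxin-7 with an expanded run of glutamines. The 4 wild type libraries came from littermates of the same strain and age. Nothing in the labels says whether replicates were separate animals or pooled tissue, so any spread between them may be technical. Atxn7 encodes ataxin-7, part of the coactivator complex SAGA, and expansion of its repeat is the cause of spinocerebellar ataxia type 7 (SCA7).

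The domains were chosen from measured values. Peaks of replicates 1 and 2 of both genotypes, the 4 long lists, were pooled and merged where they overlapped by 1 bp. A domain had a peak in all 4 lists, a merged width of 3000 bp or more, and overlapped the window of 1 kb on either side of either end of a protein-coding gene. Of 16618 merged regions on the autosomes and X chromosome, 5465 had a peak in all 4 lists and 4503 of these lay at a gene end. The other 4148 regions at gene ends, under 3000 bp wide, are called narrow regions here. Peak presence and width in the 4 long lists are therefore descriptions. Replicates 3 and 4 of both genotypes, the short lists, took no part in the choice. Paired values below are for replicate 1 and then replicate 2 of the named genotype, in base pairs covered by that library's peaks. They are uncentred unless centring is named, which scales each library to a common median over all 5465 regions.

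H3K9ac is placed on nucleosomes at active promoters, mainly by the acetyltransferases Kat2a and Kat2b within the SAGA and ATAC complexes, and is read by proteins that help RNA polymerase II start and elongate. At most active genes the mark is a short stretch on the first nucleosomes past the start site. Long stretches of active promoter marks are known from other tissues at genes that define the identity of a cell. In cerebellum the most numerous cells are granule cells, small excitatory neurons, so marks in whole tissue are weighted to them. In bulk tissue, fewer cells carrying a mark and less of the mark per cell cannot be told apart.

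The sequences below stand at the start sites of domains and show how unlike they were in CpG, the dinucleotide that is dense at promoters active in many tissues. The first 4 come from the 4 widest domains for which the RefSeq promoter table (build GRCm38.p6) had a gene-free upstream window, and the last 4, chosen after their values were seen, from granule cell genes. Each is the 250 bases before the start site, 5′ to 3′ on the gene's strand, with every CpG in capitals.
Gm36327, chr6:47675332-47675581, plus strand: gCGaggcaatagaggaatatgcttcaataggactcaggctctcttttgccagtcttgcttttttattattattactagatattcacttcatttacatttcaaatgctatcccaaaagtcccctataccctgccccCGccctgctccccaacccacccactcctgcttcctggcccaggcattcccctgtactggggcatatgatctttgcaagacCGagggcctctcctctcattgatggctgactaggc
Pcca, chr14:122484115-122484364, plus strand: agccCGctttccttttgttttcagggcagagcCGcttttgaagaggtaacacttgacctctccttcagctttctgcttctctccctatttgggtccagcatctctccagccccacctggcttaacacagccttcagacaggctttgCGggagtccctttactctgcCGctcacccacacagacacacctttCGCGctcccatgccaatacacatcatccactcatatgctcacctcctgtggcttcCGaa
Zbtb18, chr1:177442101-177442350, plus strand: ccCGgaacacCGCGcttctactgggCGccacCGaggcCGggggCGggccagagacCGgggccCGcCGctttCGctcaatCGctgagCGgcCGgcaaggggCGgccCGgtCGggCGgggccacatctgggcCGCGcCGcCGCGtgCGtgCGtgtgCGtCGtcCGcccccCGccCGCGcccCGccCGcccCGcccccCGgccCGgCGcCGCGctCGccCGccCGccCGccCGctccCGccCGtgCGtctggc
Ppp1r9b, chr11:94990962-94991211, plus strand: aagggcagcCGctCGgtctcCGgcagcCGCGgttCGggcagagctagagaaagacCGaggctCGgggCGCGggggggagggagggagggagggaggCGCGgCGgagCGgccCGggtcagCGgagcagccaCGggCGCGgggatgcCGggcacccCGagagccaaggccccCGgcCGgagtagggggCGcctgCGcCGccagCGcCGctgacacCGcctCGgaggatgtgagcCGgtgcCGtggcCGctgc
Slc17a7, chr7:45163671-45163920, plus strand: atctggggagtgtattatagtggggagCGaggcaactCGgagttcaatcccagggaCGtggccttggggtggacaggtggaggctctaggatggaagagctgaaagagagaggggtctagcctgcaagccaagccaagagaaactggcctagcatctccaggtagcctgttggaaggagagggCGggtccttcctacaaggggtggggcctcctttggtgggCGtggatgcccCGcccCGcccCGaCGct
Cbln3, chr14:55884257-55884506, minus strand: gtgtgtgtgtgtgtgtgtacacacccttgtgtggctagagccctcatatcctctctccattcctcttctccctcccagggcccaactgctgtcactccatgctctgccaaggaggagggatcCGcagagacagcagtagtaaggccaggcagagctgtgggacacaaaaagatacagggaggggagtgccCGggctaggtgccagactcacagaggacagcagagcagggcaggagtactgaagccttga
Neurod1, chr2:79456637-79456886, minus strand: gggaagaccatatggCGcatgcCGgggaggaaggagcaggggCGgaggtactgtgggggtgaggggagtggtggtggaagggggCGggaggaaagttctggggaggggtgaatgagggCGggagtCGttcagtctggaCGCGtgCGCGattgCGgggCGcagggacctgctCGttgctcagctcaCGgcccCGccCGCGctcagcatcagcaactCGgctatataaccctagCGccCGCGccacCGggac
Gabra6, chr11:42321073-42321322, minus strand: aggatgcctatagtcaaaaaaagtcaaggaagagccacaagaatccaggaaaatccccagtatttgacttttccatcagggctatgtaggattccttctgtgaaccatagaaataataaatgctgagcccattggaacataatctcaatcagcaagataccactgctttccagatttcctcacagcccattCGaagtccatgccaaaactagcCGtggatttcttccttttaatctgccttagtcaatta
The printed stretches held 47 CpG for Zbtb18, a transcriptional repressor of neuronal development, and 33 for Ppp1r9b, which encodes the dendritic spine protein neurabin-2. Neurod1, a transcription factor of granule cell differentiation, had 22 and Slc17a7, the vesicular glutamate transporter of granule cells, had 9. Pcca, a mitochondrial carboxylase subunit, had 7, Gm36327 had 3, and the granule cell genes Cbln3 and Gabra6 had 2 each.

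Domain widths ran from 3001 to 36976 bp, with a median of 3560 bp and an upper quartile of 4173 bp. Members just inside the limit lay at Rhof and Setd1b (3001 bp) and at Ccdc92 and Zfp664 (3002 bp). Those just outside lay at Hira and Mrpl40 (2999 bp), Dcaf5 (2991 bp) and Pou2f2 (2988 bp). No step in width separated the domains from the narrow regions. The number of domains was 1666 with a limit of 2000 bp and 109 with a limit of 4000 bp. Only 43 domains had 3000 bp or more covered by peaks of all 4 libraries at once, and 110 had no single peak that long in any library. The part covered by all 4 libraries was a median of 51.9% of a domain. At 3 domains, those of Arhgef1 and Cd79a, Bccip and Uros, and Ndufa11 and Vmac, no base was covered by all 4. A single peak of 3000 bp or more was present at 153 and 160 domains in the knock-in libraries and at 108 and 50 in the wild type libraries. Wild type replicate 2 had the shortest of the 4 long lists, with 7735 peaks covering 9.09 Mb. The others had 10607 to 11409 peaks covering 14.3 to 14.5 Mb. Whether list length accounts for the lower wild type values was not tested.

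The 2 widest domains stood apart from the rest and lay near each other on chromosome 6. They spanned a run of predicted Gm genes, at chr6:47650303-47687238 and chr6:47736832-47773807 (build mm10). The first was covered for 36089 and 35742 bp in knock-in and for 36686 and 35544 bp in wild type. The second was covered for 34088 and 34201 bp in knock-in and for 35494 and 23110 bp in wild type. Their merged widths of 36936 and 36976 bp were over 3 times that of the next domain. The listed promoters of Gm36327, Gm40364 and Gm40367 and 1 of the 2 of Gm40369 were identical over all 300 bases, and the ribosomal-type RNA gene Rn4.5s lay in the first domain. Reads from such copies cannot be assigned to one of them, so both domains are uncertain, and summary values are given without them where that matters.

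Behind these, the widest domains lay at Pax6, Uncx, the pair Zic1 and Zic4, and Tnrc18. At Pax6 (chr2:105668841-105679980), a homeodomain factor of granule cell precursors, peaks covered 10007 and 8582 bp in knock-in against 7979 and 5075 bp in wild type. Both knock-in values exceeded both wild type values, also after centring, and every library split the domain into 4 peaks. At Uncx (chr5:139541729-139552282), a homeobox gene, the values were 8748 and 9171 bp against 10138 and 7877 bp. The genotypes overlapped on this scale, and after centring both wild type values, 10056 and 9249 bp, lay above the knock-in values of 7953 and 8662 bp. The divergent pair Zic1 and Zic4 (chr9:91360366-91370565), zinc finger factors of the granule lineage, shared a domain of 10200 bp covered for 8534 and 9385 bp in knock-in and for 9224 and 6491 bp in wild type. The genotypes overlapped there with and without centring.

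Zic2 and Zic5, the other divergent Zic pair, lay in a run of 3 domains on chromosome 14. The domain of Zic5 (4972 bp) ended 7206 bp before that of Zic2 (7804 bp), and 655 bp beyond it began a domain of 9836 bp that overlapped a listed start site of Pcca and the non-coding gene Gm33769. At Zic2, peaks covered 7529 and 7113 bp in knock-in and 7427 and 6706 bp in wild type. At the Pcca domain they covered 8445 and 7093 bp against 8549 and 8447 bp. In all, 5 gaps between neighbouring domains were 10 kb or less. Barhl2, a homeobox factor of granule cells, had 2 domains of its own, 1792 bp apart. The remaining gaps lay among Maz, Pagr1a, Prrt2 and Kif22 on chromosome 7 and among Gpsm3, Pbx2, Agpat1 and Rnf5 on chromosome 17.

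Other domains among the 15 widest were at Tnrc18 (10177 bp), Zbtb18 (8757 bp), Cbln1 (7927 bp), Meis1 (7661 bp), Scrt1 (6788 bp), Phyhip (6732 bp), Mab21l1 (6688 bp) and Mtcl1 (6574 bp). Cbln1 encodes cerebellin 1, which granule cells secrete at their synapses with Purkinje cells. Its domain was covered for 6786 and 7838 bp in knock-in and 7591 and 5818 bp in wild type. Meis1, a homeobox cofactor of the granule lineage, varied widely between libraries, with 7215 and 4554 bp in knock-in and 4862 and 2204 bp in wild type. The plot of the 15 widest domains shows that wild type replicate 2 lay lowest at most of them. Over all domains its mean covered length was 2637 bp, against 3219 bp in wild type replicate 1 and 3477 and 3425 bp in the knock-in libraries.

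**Figure D1:**
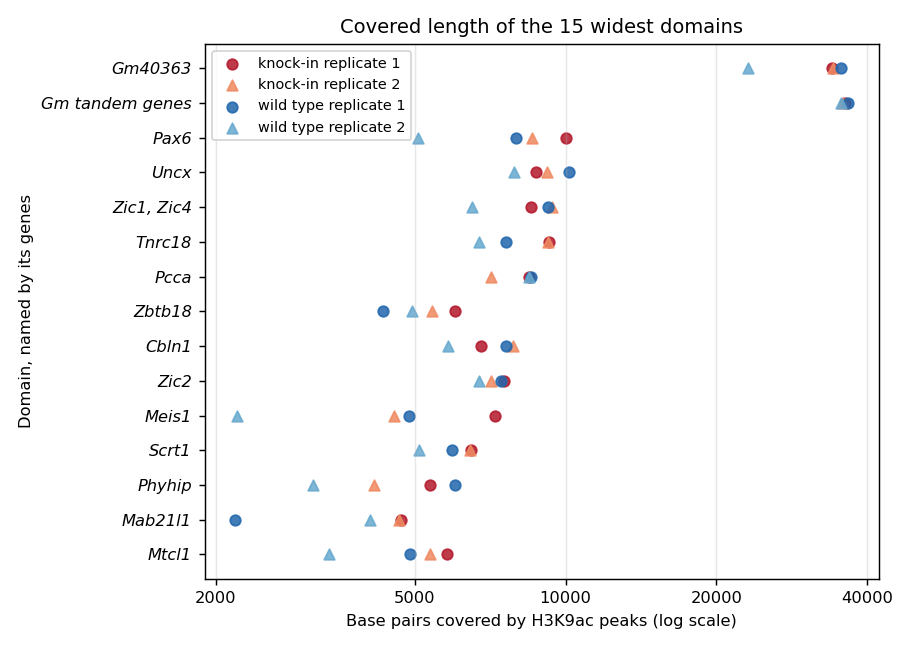
Base pairs covered by peaks (x axis, log scale) in each of the 15 widest domains (y axis, named by their genes), with 1 point per library of replicates 1 and 2. The 2 uncertain Gm domains run from 23110 to 36686 bp and the others reach at most 10138 bp, and at Pax6 the points run from 5075 to 10007 bp.

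The genes at domains were next counted in lists of cell type markers and gene families. Of all 21631 protein-coding genes on these chromosomes, 421 (1.95%) were at a domain and 22.0% at a narrow region only. Of 15 granule cell markers, 12 (80.0%) were at a domain, 1 (Reln, 2832 bp) at a narrow region only, and 2 (Calb2 and Fat2) at neither. The lists were drawn up with earlier results of these data known, so their counts describe and test nothing.

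Among the granule cell markers with a domain, Cbln3, a cerebellin secreted by granule cells, was covered for 3932 and 2890 bp in knock-in against 4430 and 3090 bp in wild type. Neurod1 was covered for 2454 and 3519 bp in knock-in and 2994 and 3113 bp in wild type. Gabra6, the GABA-A receptor subunit typical of mature granule cells, was covered for 2268 and 3064 bp in knock-in and 2472 and 2256 bp in wild type. The genotypes overlapped at Neurod1 and Gabra6 with and without centring. At Cbln3 they overlapped only without it, and the centred values were 3575 and 2730 bp in knock-in and 4394 and 3628 bp in wild type. Slc17a7 had 4578 and 4678 bp in knock-in and 4927 and 4638 bp in wild type, and the centred wild type values of 4887 and 5446 bp both lay above the centred knock-in values of 4162 and 4419 bp. At Etv1, a transcription factor of maturing granule cells, both knock-in values, 2938 and 2039 bp, lay above the wild type values of 1911 and 1175 bp. At Grin2c, the NMDA receptor subunit of granule cells, 3192 and 3284 bp in knock-in likewise lay above 2848 and 1777 bp in wild type. Only the knock-in values of Grin2c reach the width limit of 3000 bp, so its difference is a description.

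The markers of other cell types are read against the 1.95% of all protein-coding genes at a domain. Of 15 Purkinje cell markers, 1, the homeobox gene Lhx1, was at a domain (6.67%), covered for 4898 and 4312 bp in knock-in and 2391 and 2449 bp in wild type. Only the knock-in values of Lhx1 reach the width limit of 3000 bp, so its difference is a description. A further 4 Purkinje cell markers were at narrow regions, among them Ebf1 (2825 bp), Rora (2195 bp) and Slc1a6 (1570 bp). None of the 9 interneuron, 10 astrocyte and Bergmann glia, 9 oligodendrocyte, 6 microglia or 6 vascular markers was at a domain, and of these only Slc1a2, the astrocyte glutamate transporter, was at a narrow region. Counts of 0 in lists this short lie near the share of all genes. Of 30 transcription factors of the granule lineage, 13 were at a domain, of which 6 are also in the marker list. Of 25 factors of Purkinje cells and interneurons, 3 (Foxp1, Lhx1 and En2) were.

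Genes of the excitatory synapse were also counted. Of 28 glutamate and GABA receptor genes, 10 were at a domain, among them Grm4, Gria4, Gria2, Grin1, Grin2a and Gabrb2. Grm4, a presynaptic glutamate receptor of granule cells, was covered for 3855 and 4043 bp in knock-in and 3725 and 4004 bp in wild type. Gria2, the AMPA receptor subunit that limits calcium entry, had 3565 and 3582 bp in knock-in and 2566 and 623 bp in wild type, with no overlap. Only the knock-in values of Gria2 reach the width limit of 3000 bp, so its difference is a description. The 623 bp is the lowest value of any domain in wild type replicate 2, the shortest long list. Of 27 synaptic genes, 11 were at a domain, including the presynaptic genes Snap25, Syt1, Bsn, Syn2 and Unc13a. Of 25 calcium and IP3 signalling genes 4 were at a domain, among them Calm3, Atp2b1 and Plcb4, and of 25 potassium channel genes 2 were (Kcnc1 and Kcna1).

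Families expressed in most cells are likewise set beside the 1.95% of all genes at a domain and 22.0% at narrow regions only. None of 30 ribosomal protein genes was at a domain and 9 were at narrow regions. None of 32 SAGA and ATAC subunit genes was at a domain, and 22 (68.8%) were at narrow regions. These counts of 0 at domains are near the share of all genes. The region of Atxn7 and its neighbour Thoc7, 2172 bp wide, was covered for 1975 and 1408 bp in knock-in and for 1740 and 1700 bp in wild type. Peaks there do not check the genotype labels, since they do not read the repeat. The region of Kat2a was 1209 bp wide and that of Usp22, the SAGA deubiquitinase, 1791 bp. Of 22 housekeeping genes 2 (9.09%, Actg1 and Eef1a2) were at a domain, and of 23 immediate early genes 3 (13.0%, Egr1, Jun and Klf10), with 11 more at narrow regions. None of 22 Hox genes was at either class. Atxn1, which carries the repeat of spinocerebellar ataxia type 1, was the only 1 of 9 polyglutamine disease genes at a domain, covered for 2620 and 2932 bp in knock-in and 3749 and 2032 bp in wild type.

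**Figure D2:**
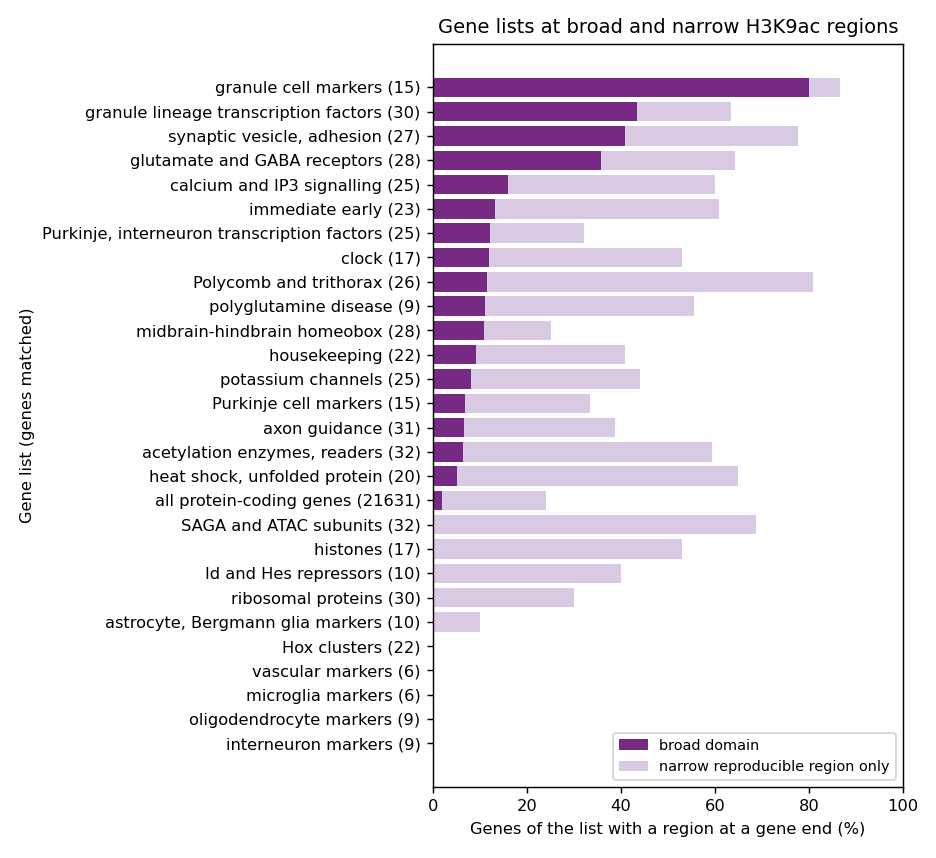
Share of each gene list (x axis, percent of matched genes) at a broad domain or at a narrow region only, by list (y axis). Granule cell markers reach 80.0% at a domain, against 1.95% of all protein-coding genes, and the SAGA and ATAC list is at 0 with 68.8% at narrow regions.

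Most domains belonged to 1 gene and its 5′ end. Of the 355 domains, 295 (83.1%) lay at 1 protein-coding gene, against 83.5% of narrow regions, and 55 at 2. The most gene ends, 11, lay in the first Gm domain, followed by 6 in a domain of 3275 bp over Eme2, Mapk8ip3, Mrps34 and Nme3 and 4 in that of Cuedc2, Fbxl15 and Psd. A whole gene lay inside 19 (5.35%), against 0.554% of narrow regions. Of 266 domains whose genes have a strand in the promoter table, 258 (97.0%) overlapped a 5′ end, against 98.3% of narrow regions. A listed start site lay inside 68.2% of domains and 77.8% of narrow regions, in a table that does not list every start site. The other 8 overlapped only 3′ ends, and they included those of Frmd8, Crtc2 with Slc39a1, Aloxe3 with Hes7, and Bcl2l15. An annotated long non-coding RNA gene overlapped 91 domains (25.6%) and 15.0% of narrow regions. A longer region can hold or touch more genes, and the rule set the widths, so neither difference is independent of the rule. Protein-coding genes at domains had a median length of 28.6 kb, close to the 30.5 kb of those at narrow regions and above the 17.3 kb of all such genes.

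Most domains reached further into the gene than away from it. At the 215 domains whose listed start sites belonged to 1 gene, the median reach was 1163 bp upstream and 2430 bp downstream, and 181 (84.2%) were longer downstream. Narrow regions had medians of 570 and 1132 bp, with 89.7% longer downstream. More than 1000 bp lay upstream at 60.5% of domains and at 10.9% of narrow regions. The rule asks for length, so these differences in reach are descriptions. Pax6 was the extreme, with 55 bp upstream and 11084 bp downstream. Tnrc18 and Nr2f1, an orphan nuclear receptor, went the other way, with 6151 and 5176 bp upstream and 4025 and 1386 bp downstream.

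Coverage by peaks was highest just past the start site in every long list. It reached 98.6% of domains at 100 bp past the start site in knock-in replicate 1 and 98.6% at 300 bp in knock-in replicate 2. In wild type it reached 96.7% at 400 bp in replicate 1 and 91.2% at 250 bp in replicate 2. At 1000 bp upstream the 4 libraries had fallen to between 30.7% and 48.8%, and at 1000 bp downstream to between 76.7% and 93.5%. The short lists, which took no part in choosing the domains, also had their highest coverage downstream of the start. Knock-in replicate 3 reached 24.2% at 350 bp and wild type replicate 3 reached 13.5% at 250 bp, against 10.2% and 6.51% at the start site itself. Knock-in replicate 4 and wild type replicate 4 reached only 1.86% and 4.19%.

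**Figure D3:**
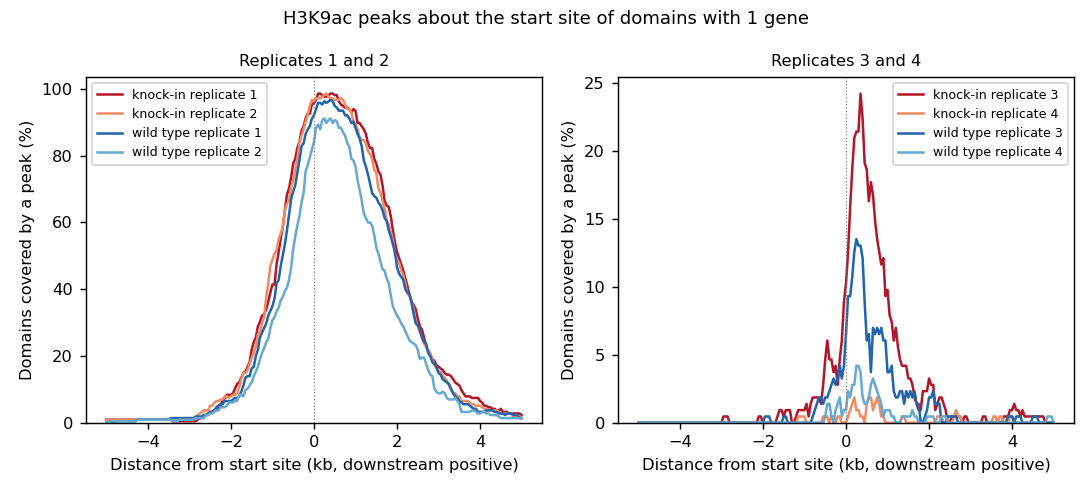
Percent of 215 domains covered by a peak (y axis) at each distance from the start site in kb (x axis, positive into the gene). Each line is 1 library. The long lists peak between 91.2% and 98.6% just past the start site and are lower upstream than downstream.

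Promoters in domains were mostly rich in CpG. The promoter table lists 336 start sites inside domains, 4072 inside narrow regions and 21045 in all. The ratio of observed to expected CpG had a median of 0.79 in domains, 0.87 in narrow regions and 0.57 in all promoters. It was 0.6 or more at 76.2% of start sites in domains (exact 95% interval 71.3 to 80.6%), 89.8% in narrow regions (88.9 to 90.7%) and 48.1% of all. These intervals cover counting error only, and start sites of 1 gene are not independent. With 1 start site per gene the shares were 79.3% of 271 and 89.7% of 3519. In domains of 4000 bp or more the share was 71.4% of 77 genes. The stretches printed above span this range, from a ratio of 0.0839 over the promoter of Cbln3 to 1.03 for the outermost start site of Zbtb18. Zbtb18 has 4 further listed start sites in its domain, with ratios of 0.0730, 0.0735, 0.182 and 0.216. The 10 listed promoters of granule cell markers in domains had a median of 0.69.

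Short motifs were counted on both strands of the same 300 bases. The TATA box TATAAA was in 5.95% of promoters in domains, 4.17% in narrow regions and 12.7% of all. The GC box GGGCGG was in 71.4%, 77.1% and 46.7%. The E-box CAGATG, of the kind bound by Neurod1 and its relatives, was in 8.04%, 8.06% and 14.4%. A match describes these letters only.

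The 8 lists differed greatly in depth of calling. The long lists hold most of the 52676 peaks, and peaks of the short lists had median widths between 132 and 148 bp. Read depth is unknown, because the files hold peaks and no counts. Within each long list, a region was ranked by the highest authors' peak score it held. The domains' median percentile was 89.6 and 92.4 for knock-in and 93.3 and 86.1 for wild type. For narrow regions the medians ran from 62.9 to 74.2. Domains were chosen by width from these same peaks. Some library had 2 or more peaks at 64.5% of domains and 6.36% of narrow regions, which gives domains more scores to choose from. The difference in percentile is therefore a description. Scores rank peaks within 1 list and are not compared between lists.

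The short lists give a readout that the choice of domains did not use. At least 1 peak fell in 215 domains (60.6%) in knock-in replicate 3, 39 (11.0%) in knock-in replicate 4, 160 (45.1%) in wild type replicate 3 and 60 (16.9%) in wild type replicate 4. Those lists held 5571, 1266, 3249 and 1571 peaks, in the same order, and the shares rose with list length. The shares of narrow regions were 43.0%, 3.52%, 22.6% and 6.00%. Domains were higher in 4 of 4 libraries, by 14.6 ± 6.72 percentage points (SD, n = 4), and the two-sided exact sign-flip p was 0.125, the smallest that 4 libraries allow. Domains are longer and so offer more room for a peak. Over the central 1 kb alone the difference was 2.24 ± 3.11 points (SD, n = 4), higher in 3 of 4 libraries, with an exact p of 0.25. Per kb of region, domains and narrow regions differed by 0.00787 peaks, with an exact p of 0.625.

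Of the domains, 254 (71.5%) had a peak in at least 1 short list, against a background of 50.9% of all 5465 regions. A peak in all 4 short lists occurred at 17 domains (4.79%), against 0.97%. Besides the uncertain Gm domain, these included Scrt1, a neuronal repressor, Mtcl1, a microtubule protein of Purkinje cells, Kcnc1, a fast potassium channel, and Rbfox3, the gene of the neuronal marker NeuN. Others were St8sia5, Msl1, Mtus2, the pair Ankrd13a and Git2, and the pair LOC115489044 and Zfand5. At Rbfox3 (chr11:118906301-118910613) peaks covered 4021 and 4313 bp in knock-in against 3761 and 3118 bp in wild type. After centring the genotypes overlapped there, with a log2 difference of 0.06. No short list had a peak at 101 domains, Pax6, Meis1 and Mab21l1 among them.

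**Figure D4:**
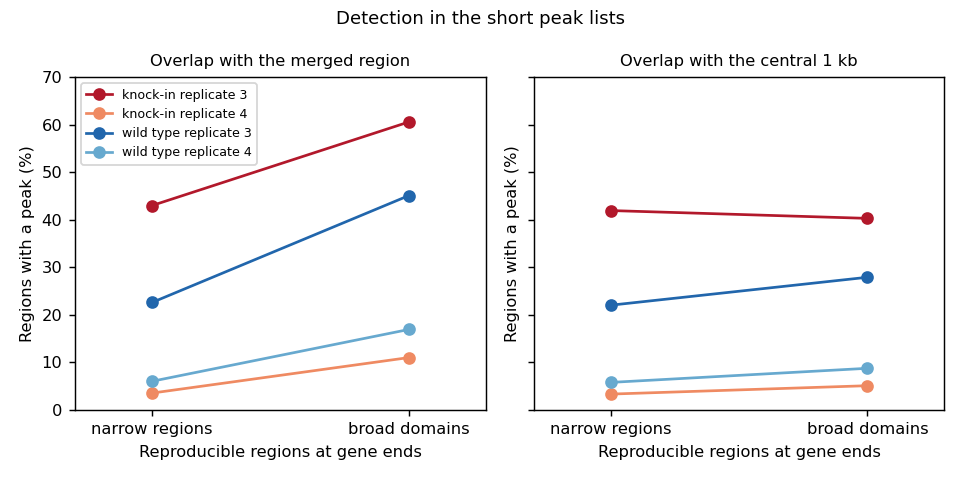
Percent of narrow regions and of broad domains (x axis) with a peak (y axis), with 1 line for each of the 4 short lists. The panels count peaks over the merged region and over its central 1 kb. Over the merged region, domains run from 11.0% to 60.6% and narrow regions from 3.52% to 43.0%, with domains higher in each list. Over the central 1 kb, domains are higher in 3 of 4 lists. In knock-in replicate 3 they are lower there, at 40.3% against 41.9%.

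The genotype means of the long lists in this paragraph come from the peaks that chose the domains and are given with no test. In the long lists the mean covered length of a domain was 3451 ± 37.0 bp in knock-in and 2928 ± 412 bp in wild type (SD, n = 2), a difference of 523 bp. Without the 2 Gm domains the difference was 513 bp. The gap was 232 bp without wild type replicate 2, the shortest long list, and 814 bp without wild type replicate 1. Peaks covered 83.2 ± 0.712% of a domain in knock-in and 70.3 ± 9.87% in wild type, in 1.34 ± 0.0159 and 1.42 ± 0.0777 peaks per domain (SD, n = 2). Relative to the mean of narrow regions in the same library, domains were 2.24 and 2.28 times as long for knock-in and 2.25 and 2.16 times for wild type. In the short lists, 35.8 ± 35.1% of domains had a peak in knock-in and 31.0 ± 19.9% in wild type (SD, n = 2). The exact permutation test (two-sided) gave p = 1. With 2 libraries against 2 that test cannot go below 0.333. Without knock-in replicate 3 the difference of 4.79 points became -20 points, and without wild type replicate 4 it became -9.30 points.

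Domain by domain, limma was fitted to log2 covered length, centred on each library's median, over all 5465 regions. No region passed an adjusted p of 0.05 in either direction, a background of 0%. At an unadjusted p under 0.05, 27 domains (7.61%) were longer in knock-in, against a background of 3.35%, and 7 (1.97%) were shorter, against 2.38%. A region long in 1 genotype alone can pass the width limit through that genotype, so these shares of domains are descriptions and nothing is read from their distance to the background. After centring, both knock-in values lay above both wild type values at 70 domains (19.7%, background 15.8%) and below them at 79 (22.3%, background 19.5%). The median log2 difference over domains was 0.01, and without centring it was 0.23, against 0.20 over all regions. On simulated data with 100 regions changed 4-fold and 100 changed 2-fold, the fit called 57 and 4 of them, so most changes of that smaller size were not called.

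Among the 8 domains named by smallest p, that with the smallest lay at the 3′ end of Frmd8 (chr19:5846005-5850063), which encodes a partner of the iRhom proteins, and 525 bp from the long non-coding RNA gene Neat1. Peaks covered 3358 and 3550 bp in knock-in against 845 and 814 bp in wild type. The groups did not overlap, and the log2 difference was 1.84 (SE 0.23) with a limma adjusted p of 0.153 over all 5465 regions. The wild type values are far under the width limit, so Frmd8 is a domain through its knock-in peaks and its difference is a description. On the same region the log2 difference was 1.91 without knock-in replicate 1 and 1.77 without knock-in replicate 2. It was 1.74 without wild type replicate 1 and 1.93 without wild type replicate 2. Merging the peaks again without knock-in replicate 1 left a shorter region of 1646 bp, with a log2 difference of 0.75. At Nptx1, a secreted pentraxin that clusters AMPA receptors, 5005 and 5804 bp in knock-in stood against 2538 and 2100 bp in wild type, a log2 difference of 1.00 (limma adjusted p 0.863). Only the knock-in values of Nptx1 reach the width limit. Tmem259 and Rundc3a had log2 differences of 1.18 and 1.01. Tmem259 stood at 0.17 where peaks merged again without knock-in replicate 1 left 1443 bp of its 3241 bp, and at 1.06 on the same region without that library. In the other direction, Mdga1, an adhesion protein that binds neuroligins, had 1666 and 2373 bp in knock-in and 2700 and 3233 bp in wild type, a log2 difference of -0.79 (limma adjusted p 0.863). Bcl2l15, LOC115489044 with Zfand5, and Arhgef1 with Cd79a had log2 differences of -0.66, -0.67 and -1.05. On the same region, that of Arhgef1 and Cd79a was -1.62 without knock-in replicate 1 and -0.48 without knock-in replicate 2, and that of Mdga1 was -0.51 without knock-in replicate 1. Bcl2l15 was at -0.60 on the same region without wild type replicate 2, and at -0.10 where peaks merged again without that library left 2135 bp. None of the 8 passed that test with all 4 libraries and no replicate block. The width rule used these same peaks, so the differences of all 8 are descriptions.

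**Figure D5:**
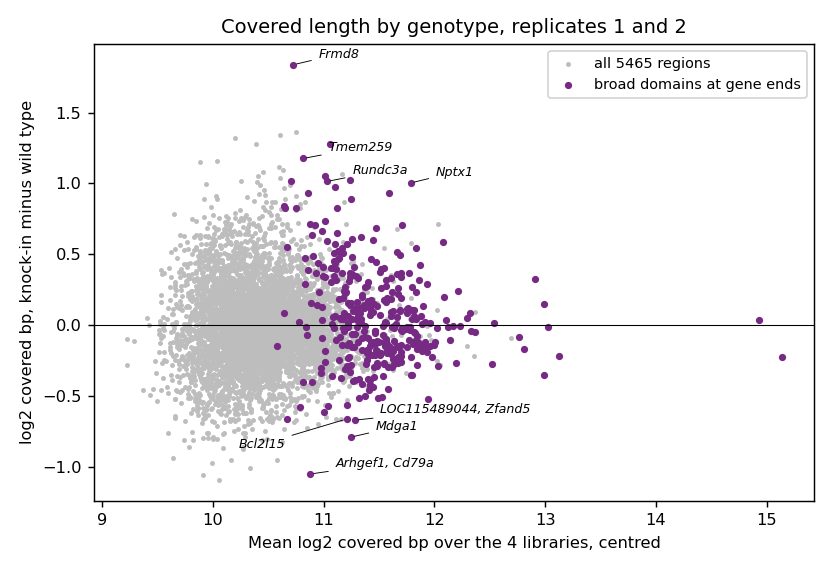
Log2 difference in covered length, knock-in minus wild type after centring (y axis), against mean log2 covered length (x axis), for domains and for all 5465 regions. Frmd8 stands highest among the domains at 1.84, and no region passed an adjusted p of 0.05.

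In the short lists, 5 domains (1.41%, background 0.805%) were marked in both knock-in lists and neither wild type list, those of Phyhip, Dnm1, Mmp24, Prox1 and the run of Cuedc2, Fbxl15 and Psd. The reverse held at 3 domains (0.845%, background 0.311%), those of Ntn4, Camk2n1 and the pair Ankrd34a and Polr3gl. In the long lists Dnm1, which encodes the endocytic GTPase dynamin 1, had 5690 and 3516 bp in knock-in and 3736 and 2551 bp in wild type, and Phyhip had 5368 and 4140 bp against 6029 and 3131 bp. The genotypes overlapped at both.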

How the data were processed

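H3K9ac ChIP-seq peaks from 8 cerebellum libraries, 4 per genotype, were used as deposited. Per the submitters' processing notes, reads were aligned with Bowtie2 to mm10. Per the file headers, the authors called peaks for each library with MACS in Galaxy. Each deposited line holds a peak's position and a score, whose scale is not stated. The sources used here name no MACS version, setting or input control. The lists of replicates 1 and 2 are long and those of replicates 3 and 4 short, and the 2 sets were tested apart. Peaks on the autosomes and X chromosome were merged and matched to RefSeq genes (GRCm38.p6). Members, gene lists and tests were chosen with earlier results of these data known. Genes were named by rule: the 15 widest domains, the 3 on each side of the width limit, the 4 with the smallest limma p in each direction, domains with peaks in all 8 libraries, up to 4 members of each list, the 3 domains with most gene ends, and Atxn7, Kat2a and Usp22. Other genes were named after their values were seen, and a few that the rule names are not reported here. Covered length was tested with limma 3.58.1 in R 4.3.3 with Benjamini-Hochberg adjustment, and single values with exact permutation tests in Python 3.11.15. Exact intervals of shares came from scipy 1.17.1. The fit was tested on simulated data. Alternatives covered the width limit, centring, score filters, peak presence, the replicate block and leaving out libraries.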

Additional observations from a re-analysis of the deposited data

How the results depend on the processing

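The number of domains depends on the width limit: 1666 at 2000 bp, 109 at 4000 bp and 43 where the part common to all 4 lists had to reach 3000 bp. It was 270 to 333 when 1 library was left out. The limma count of regions rose from 0 to 921 with regions that had a peak in at least 2 of 4 lists, on log2(bp + 200). None of the domains was among the 921. Fits with 1 library left out have a lone library in an arm, so only their log2 differences are given. Keeping the same regions in those fits was an alternative chosen after seeing the data. The share of promoters with a CpG ratio of 0.6 or more was 65.7% in domains of 4000 bp or more. The genotype difference in the share with a short-list peak turned to -1.69 points with the 1200 highest-scoring peaks of each list, and ranged from -20 to 29.6 points with 1 library left out. The cause was not tested. With 1 library left out, the genotype difference was 232 to 814 bp in mean covered length, 5.97 to 19.9 points in covered share and -0.141 to -0.0310 in peaks per domain, and domains exceeded narrow regions in the short lists by 11.98 to 16.99 points. A lone library in an arm is assumed to vary like the other genotype.

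Replicate numbers did not pair the libraries: the correlation of replicate differences between genotypes was -0.026 over 5465 regions, from 2 pairs. With the replicate number as a block, limma called 1 region, that of Frmd8, and the difference in mean covered length stayed at 523 bp. The limma adjusted p of Frmd8 was then 0.0142, against 0.153 without the block. Frmd8 is a domain through its knock-in peaks, so nothing is read from this call.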
